A study of Arabidopsis thaliana with 30 samples.

Results

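The subject is the run of early flavonoid enzyme genes of Arabidopsis thaliana, from chalcone synthase to flavonol synthase. The 6 genes were CHS (AT5G13930), CHI (AT3G55120), CHIL (AT5G05270), F3H (AT3G51240), F3'H (AT5G07990) and FLS1 (AT5G08640). They were picked by locus for their place in the pathway, out of 34212 loci in the count table. The rule used no measured value, but it was set with earlier results of these data known. All 6 passed the filter on low counts, which kept 19980 genes.

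Flavonoids are made from phenylpropanoid precursors, and in leaves flavonols collect mainly in the epidermis, where they absorb UV radiation. CHS joins p-coumaroyl-CoA with malonyl-CoA into a chalcone, CHI closes the ring to give a flavanone, and CHIL is a relative of CHI that binds CHS and raises flavonoid output without being a catalyst itself. F3H hydroxylates the flavanone to a dihydroflavonol, F3'H adds a hydroxyl group to the B ring and so leads to quercetin in place of kaempferol, and FLS1 turns dihydroflavonols into flavonols. Transcription of several of these genes is known to depend on the bZIP factor HY5 and on the flavonol regulators MYB11, MYB12 and MYB111.

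Transcripts were measured by RNA-seq in whole rosettes of 3 week old plants that spent 6 h in the open under 1 of 5 long-pass filters. They are labelled UVA+B, UVA and UVA350, which by name pass UV, and UV0 and blue0, which by name do not. The plants were the wild type Ler (Landsberg erecta), uvr8-2, a mutant of the UV-B receptor UVR8 in that background, and cry1cry2, a double mutant of the blue-light receptors cryptochrome 1 and cryptochrome 2. Each mutant is a single line, and all plants had come from growth rooms with lamps whose UV-A was filtered out. The series asked how UVR8 and the cryptochromes shape gene expression in sunlight. Each of the 15 genotype and filter groups had 2 libraries, each made from RNA of 2 of the 4 field blocks, where a block sample was itself a pool of 5 rosettes. The p-values therefore measure the spread between pooled libraries of a single outdoor day. The comparison UVA+B minus UVA is called the UV-B step, UVA minus UVA350 the short UV-A step, UVA350 minus UV0 the long UV-A step, UV0 minus blue0 the blue step, and UVA+B minus UV0 total UV. These names follow the names of the filters, because the labels give no wavelengths for them.

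Library totals ran from 12109222 to 22865826 estimated counts. Chloroplast genes took over 1% of the counts in 3 libraries, namely replicate 2 of cry1cry2 UVA+B (1.165%), of cry1cry2 UVA (1.316%) and of uvr8-2 blue0 (1.585%), and calls lost without these libraries are given beside the results. The rosette label was borne out by the 5 leaf markers, none of which was under 886 CPM (the count scaled to library size) in any library. Root, flower and seed markers summed to at most 2.43, 3.7 and 0.281 CPM. The seed storage gene CRA1 was at 0 in 29 of 30 libraries and the root hair regulator RHD6 in 27.

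The genes lie apart on chromosomes 3 and 5 of the RefSeq annotation of assembly TAIR10.1, which describes the Columbia accession, while the wild type here is Ler. CHS occupies chr5:4488476-4490264 on the plus strand with 2 exons, CHI chr3:20430059-20431597 on the minus strand with 4, and CHIL chr5:1563286-1565324 on the plus strand with 5. F3H occupies chr3:19025192-19026872 with 3 exons, F3'H chr5:2560328-2563137 with 4 and FLS1 chr5:2803833-2805606 with 3, each on the plus strand. Their proteins are 395, 246, 209, 358, 513 and 336 residues long in the order CHS, CHI, CHIL, F3H, F3'H and FLS1. The pair with the highest identity was F3H and FLS1, both 2-oxoglutarate-dependent dioxygenases, with 32.62% of aligned residues identical, against 26.79% for CHI and CHIL and 19.75% to 27.6% over the remaining pairs. Near-identical copies that could trade reads were therefore not present among the 6. An antisense gene, AT3G51238, overlaps F3H on the other strand and was listed at 1.01 to 142 CPM, which was 4.6% to 17.0% of the F3H level in the same library. The strand setting of the counting is not given, so reads of this pair cannot be told apart and the F3H values are uncertain to that extent. A gene overlapping CHS on the other strand, AT5G13940, stayed at or under 0.633 CPM.

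The 250 bases before the annotated gene start are shown for CHS, CHIL and F3H, which hold the G-box letters CACGTG, and for F3'H and FLS1, which do not and whose estimates for UVA minus UVA350 lay farthest apart in Ler and cry1cry2. They lie at chr5:4488226-4488475 (CHS), chr5:1563036-1563285 (CHIL), chr3:19024942-19025191 (F3H), chr5:2560078-2560327 (F3'H) and chr5:2803583-2803832 (FLS1), all on the plus strand and read from the RefSeq genome. Capitals mark every match to a searched motif.
CHS: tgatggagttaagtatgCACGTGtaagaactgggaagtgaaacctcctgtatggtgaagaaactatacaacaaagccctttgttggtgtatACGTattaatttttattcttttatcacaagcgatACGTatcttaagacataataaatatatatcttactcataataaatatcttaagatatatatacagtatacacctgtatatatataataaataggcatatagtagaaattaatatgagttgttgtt
CHIL: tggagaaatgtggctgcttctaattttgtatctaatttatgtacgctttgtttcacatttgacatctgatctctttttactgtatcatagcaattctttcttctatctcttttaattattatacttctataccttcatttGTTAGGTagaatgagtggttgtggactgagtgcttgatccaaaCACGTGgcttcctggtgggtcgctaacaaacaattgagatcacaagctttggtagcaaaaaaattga
F3H: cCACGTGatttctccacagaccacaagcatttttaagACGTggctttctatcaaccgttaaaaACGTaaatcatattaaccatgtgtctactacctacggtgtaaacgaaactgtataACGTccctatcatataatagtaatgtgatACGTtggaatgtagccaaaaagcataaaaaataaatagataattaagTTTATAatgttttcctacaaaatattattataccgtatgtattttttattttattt
F3'H: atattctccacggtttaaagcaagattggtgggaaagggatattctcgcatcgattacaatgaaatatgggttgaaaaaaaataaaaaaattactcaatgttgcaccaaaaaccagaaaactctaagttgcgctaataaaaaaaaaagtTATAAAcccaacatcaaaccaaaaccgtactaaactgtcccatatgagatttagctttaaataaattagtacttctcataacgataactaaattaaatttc
FLS1: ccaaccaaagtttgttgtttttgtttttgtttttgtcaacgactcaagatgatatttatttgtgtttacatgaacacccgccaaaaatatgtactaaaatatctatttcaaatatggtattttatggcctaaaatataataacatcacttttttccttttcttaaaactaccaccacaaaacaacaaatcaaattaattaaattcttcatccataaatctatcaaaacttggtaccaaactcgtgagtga

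The motifs were searched on both strands, and the ACGT core lies inside the G-box CACGTG. The G-box letters were found in 3 of the 6 windows, with their first base at -233 from the CHS start, -67 from CHIL and -249 from F3H. They were in 6.49% of the 27443 windows of the same length over all annotated protein-coding genes. ACGT was found in the same 3 windows of the 6 and in 44.08% of all windows. Of the AC elements, ACCTAAC was in the CHIL window alone (2.46% of all windows) and ACCTACC was in none of the 6 (1.16%), and the C-box GACGTC was in none (2.27%). TATAAA was in the windows of CHI, F3H and F3'H, and in 47.35% of all windows. FLS1 held none of these letters in its window. A match describes the letters only.

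All 6 transcripts ran through a wide range over the 15 groups, lowest in every case in cry1cry2 under blue0 and highest under UVA+B. CHS went from 78.8 CPM to 5950 CPM, a 75.5-fold range, with its highest mean in cry1cry2 under UVA+B. FLS1 had the widest range, 347-fold, from 5.41 CPM to 1877 CPM, also highest in cry1cry2 under UVA+B. F3H ranged 173-fold, CHIL 69.0-fold, F3'H 39.3-fold and CHI 24.0-fold, each highest in Ler under UVA+B. Summed, the 6 genes took 0.0132% of the counts in cry1cry2 blue0 replicate 1 and 1.25% in cry1cry2 UVA+B replicate 1. The lowest estimated count of any member in any library was 92, for FLS1, so none was near the counting floor. In such bulk samples, fewer cells of a type and less RNA per cell cannot be told apart.

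**Figure D1:**
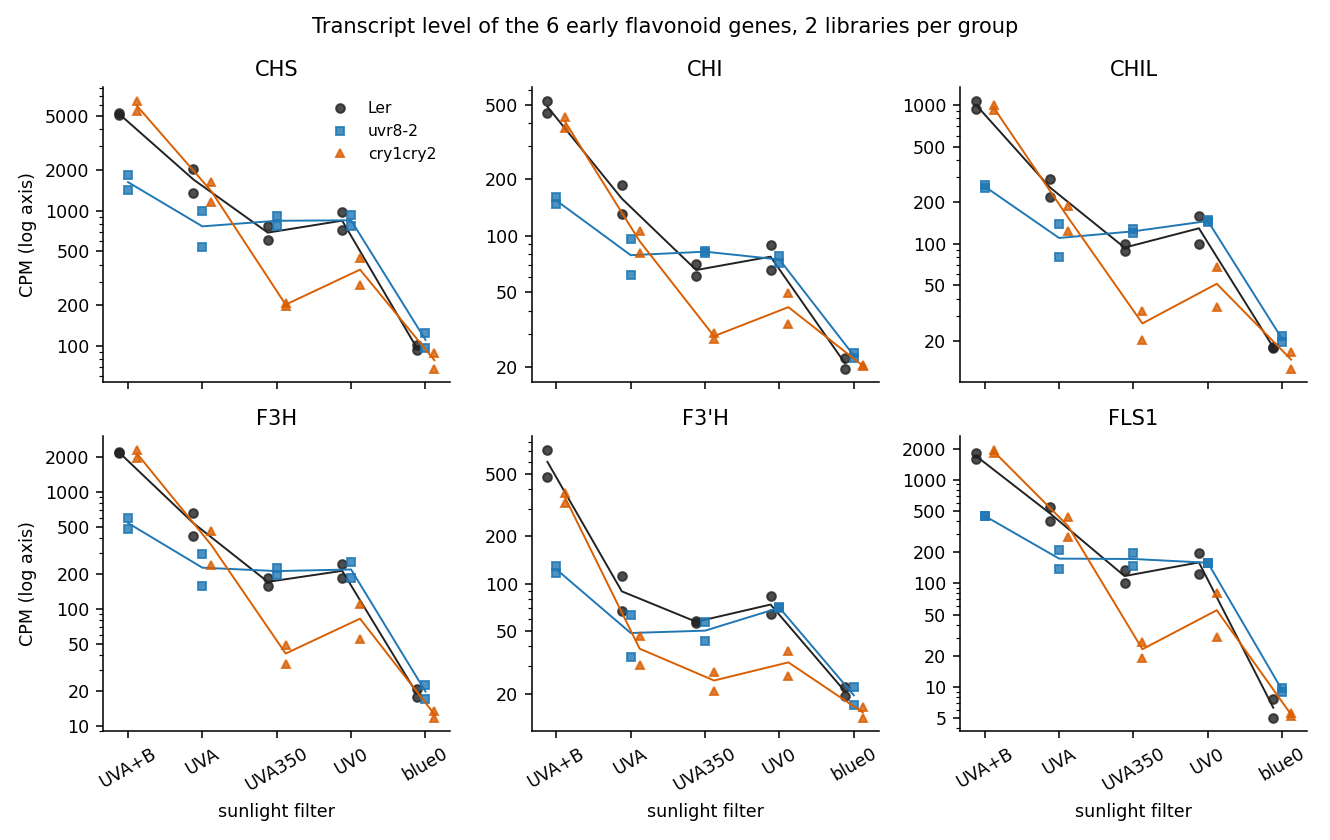
Level of each of the 6 genes in CPM (log axis) under the 5 filters, with 1 point per library, 2 libraries per group and a line through the group means of each genotype. The uvr8-2 line lies lowest under UVA+B for each gene, the F3'H mean there is 597 CPM in Ler and 352 CPM in cry1cry2, and the cry1cry2 line dips under UVA350 and UV0, where CHS means were 203 and 367 CPM against 689 and 844 in Ler.

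The order of the groups was much alike but not the same for each gene. For CHS it ran cry1cry2 UVA+B, Ler UVA+B, Ler UVA, uvr8-2 UVA+B, cry1cry2 UVA, then uvr8-2 UV0, Ler UV0, uvr8-2 UVA350, uvr8-2 UVA and Ler UVA350, and last cry1cry2 UV0, cry1cry2 UVA350, uvr8-2 blue0, Ler blue0 and cry1cry2 blue0. Of the 14 pairs of neighbours in this order, 7 overlapped in their libraries, among them all pairs from uvr8-2 UV0 down to Ler UVA350. In FLS1, 6 of 14 neighbouring pairs overlapped, in CHI 6, in CHIL 8, in F3H 8 and in F3'H 9. The 3 blue0 groups filled the last 3 places for all 6 genes. F3'H differed in where cry1cry2 UVA stood. It was at place 10 of 15 for F3'H (46.9 and 30.4 CPM) and at place 5 for the other genes.

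At the Ler UV-B step all 6 genes rose, against 2.23% of all genes tested that were called higher. CHS was at 5081 and 5297 CPM under UVA+B and at 2044 and 1355 under UVA. The CHS groups did not overlap, and the rise was 1.61 ± 0.29 on the log2 scale (SE; edgeR adjusted p = 0.00264). F3'H was at 481 and 713 CPM against 112 and 67.4, a rise of 2.74 ± 0.31 (edgeR adjusted p = 3.41e-05), or 6.67-fold, the largest estimate of the 6. CHI rose by 1.63 ± 0.21, FLS1 by 1.85 ± 0.35, CHIL by 1.99 ± 0.31 and F3H by 2.01 ± 0.36, with 2 libraries above 2 in each. The median over all genes tested was 0.01. Without Ler UVA replicate 2, only CHI and F3'H were called, and without Ler UVA+B replicate 2 the 5 other than FLS1. No estimate fell under 1.34 with a library left out.

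In cry1cry2 all 6 rose at the UV-B step too, where 6.72% of genes were called higher. CHS was at 6492 and 5409 CPM under UVA+B and at 1637 and 1153 under UVA, and F3'H at 325 and 378 against 46.9 and 30.4. Neither gene overlapped between the groups. The estimates ran from 2.09 ± 0.29 for CHS to 3.19 ± 0.31 for F3'H, with edgeR adjusted p from 1.47e-06 to 0.000257. FLS1 was at 1947 and 1807 CPM against 437 and 278, a 5.25-fold rise.

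In uvr8-2 none of the 6 was called at this step in the test across all genes, where 0.0% of all genes were called and 1204 had an unadjusted p under 0.05. CHS was at 1840 and 1413 CPM under UVA+B and at 993 and 540.5 under UVA. F3'H was at 117 and 130 against 63.2 and 34.0, and FLS1 at 445 and 449 against 208 and 139. All 6 genes had both UVA+B libraries above both UVA libraries, with estimates of 0.97 ± 0.21 (CHI) to 1.37 ± 0.35 (FLS1). Here and in the other comparisons, how many of all genes lay wholly above or below was not counted. Such layouts therefore have no background and only describe the 6 genes. All 6 had an unadjusted p under 0.05 and edgeR adjusted p between 0.178 and 0.424, and DESeq2 called 4 of them. The difference of this step from that in Ler was itself tested: the estimates for uvr8-2 minus Ler were -0.48 to -1.39, and none of the 6 was called, with 0.00501% of genes called, 2 members at an unadjusted p under 0.05 and 0 by DESeq2. For cry1cry2 minus Ler the differences were 0.45 to 0.64, again with 0 members called and 0.0% of genes (0 members at an unadjusted p under 0.05, 0 by DESeq2).

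**Figure D2:**
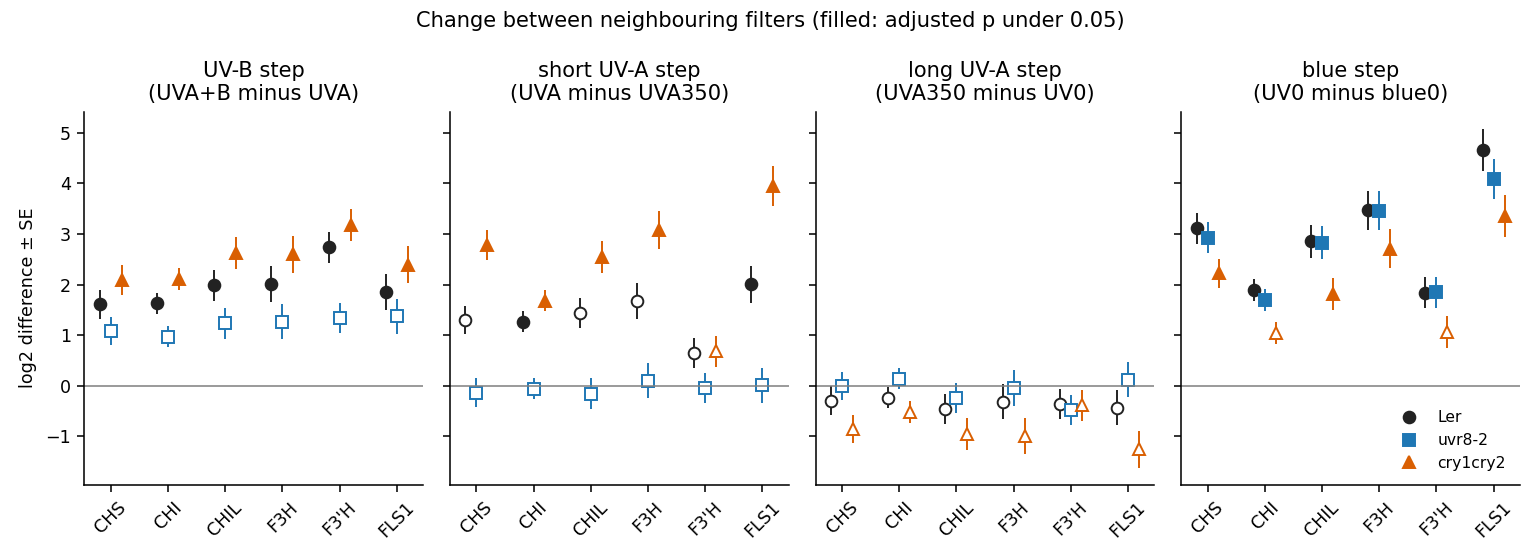
Log2 difference with its standard error for each gene at the 4 steps between neighbouring filters, in Ler, uvr8-2 and cry1cry2, from a fit over all 30 libraries; filled symbols passed an adjusted p of 0.05 over all genes. Neighbouring steps share a group. In cry1cry2 at the short UV-A step F3'H lies at 0.68 while FLS1 lies at 3.95.

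The short UV-A step gave calls in Ler and cry1cry2 and none in uvr8-2. In Ler, CHI and FLS1 rose, where 0.185% of genes were called higher. FLS1 was at 543 and 399.7 CPM under UVA and at 100.1 and 135 under UVA350, a rise of 2.00 ± 0.36 (edgeR adjusted p = 0.021), and CHI was at 186 and 130.1 against 60.9 and 70.6, a rise of 1.26 ± 0.21 (edgeR adjusted p = 0.0084). All 6 genes had both UVA libraries above both UVA350 libraries and an unadjusted p under 0.05. The estimates of those not called were 1.30 ± 0.28 for CHS, 1.44 ± 0.31 for CHIL, 1.67 ± 0.36 for F3H and 0.64 ± 0.29 for F3'H. DESeq2 called 5 of the 6. Both Ler calls were lost without Ler UVA replicate 1, without Ler UVA350 replicate 1 and without Ler UVA350 replicate 2, with estimates between 0.98 and 2.23 over the fits. The FLS1 call was also lost without the filter on low counts (edgeR adjusted p = 0.0509) and with Ler fitted alone (edgeR adjusted p = 0.0564).

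In cry1cry2, 5 of the 6 rose at the short UV-A step, where 2.19% of genes were called higher. FLS1 was at 437 and 278 CPM under UVA and at 27.1 and 19.2 under UVA350, a 15.5-fold rise (3.95 ± 0.40, edgeR adjusted p = 1.5e-05). CHS was at 1637 and 1153 against 207 and 199, and F3H at 465 and 236 against 49.2 and 33.6. The groups were far apart in these genes, with rises of 2.78 ± 0.30 for CHS and 3.09 ± 0.38 for F3H, beside 2.54 ± 0.32 for CHIL and 1.68 ± 0.21 for CHI. F3'H, at 46.9 and 30.4 CPM against 27.6 and 20.8, did not pass the test (0.68 ± 0.31, edgeR adjusted p = 0.252).

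In uvr8-2 the short UV-A step left the 6 genes at estimates from -0.16 to 0.10, with overlapping libraries in all 6. None was called, 0.0% of genes were called (633 at an unadjusted p under 0.05), 0 members had an unadjusted p under 0.05 and DESeq2 called 0. CHS was at 993 and 540.5 CPM under UVA and at 766 and 919 under UVA350. The 2 UVA libraries thus lay on either side of the UVA350 pair. The difference from the step in Ler was -0.69 to -1.99, with 5 members at an unadjusted p under 0.05 but 0 called by edgeR (0.0% of genes) and 1 by DESeq2. The difference of cry1cry2 from Ler was 0.03 (F3'H) to 1.95 (FLS1), with 4 members at an unadjusted p under 0.05, 0 called by edgeR (0.015% of genes) and 1 by DESeq2.

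No member was called at the long UV-A step in any genotype. In Ler the estimates were -0.46 to -0.24, and 0.0% of genes were called. In uvr8-2 they were -0.48 to 0.14, and 0.0501% of genes were called. In cry1cry2 they were lower, -1.26 for FLS1, -0.99 for F3H, -0.96 for CHIL and -0.86 for CHS, and 5 of the 6 genes had both UVA350 libraries below both UV0 libraries. FLS1 was at 27.1 and 19.2 CPM under UVA350 and at 30.0 and 80.1 under UV0 in cry1cry2. Of the 6, 5 had an unadjusted p under 0.05 in cry1cry2, but none passed the adjustment, 0.0% of genes were called and DESeq2 called 0. In Ler and uvr8-2, 0 members had an unadjusted p under 0.05 and DESeq2 called 0. The differences from Ler ran from -0.12 to 0.56 in uvr8-2 (0 members, 0.0% of genes) and from -0.82 to -0.02 in cry1cry2 (0 members, 0.0% of genes), with 0 members at an unadjusted p under 0.05 and 0 by DESeq2 in both.

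The blue step moved all 6 genes in Ler and in uvr8-2. FLS1 had the largest estimate in each genotype. In Ler, where 9.7% of genes were called higher, FLS1 was at 122 and 197 CPM under UV0 and at 5.045 and 7.58 under blue0, a 25.3-fold rise (4.66 ± 0.42, edgeR adjusted p = 1.11e-06). CHS was at 718 and 970.4 CPM against 93.9 and 102, a rise of 3.11 ± 0.30. F3'H, with 64.0 and 83.5 against 22.1 and 19.2, and CHI, with 65.7 and 89.2 against 19.6 and 22.3, had the smallest rises, 1.84 ± 0.31 and 1.89 ± 0.22. CHIL rose by 2.85 ± 0.33 and F3H by 3.47 ± 0.39.

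In uvr8-2, where 8.38% of genes were called higher, FLS1 was at 157.8 and 158.2 CPM under UV0 and at 8.92 and 9.67 under blue0, a rise of 4.09 ± 0.41. The remaining rises were 1.70 ± 0.21 for CHI, 1.84 ± 0.31 for F3'H, 2.83 ± 0.33 for CHIL, 2.93 ± 0.30 for CHS and 3.46 ± 0.39 for F3H. Set against Ler, the difference of the step was -0.57 to 0.01 and 0 members were called (0.0% of genes, 0 members at an unadjusted p under 0.05, 0 by DESeq2).

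In cry1cry2, CHS, CHIL, F3H and FLS1 rose at the blue step, where 0.16% of genes were called higher. FLS1 was at 30.0 and 80.1 CPM under UV0 and at 5.60 and 5.22 under blue0, a rise of 3.35 ± 0.41 (edgeR adjusted p = 0.00153), and CHS at 284 and 451 against 68.1 and 89.4, a rise of 2.22 ± 0.29 (edgeR adjusted p = 0.00187). CHI (1.04 ± 0.21) and F3'H (1.06 ± 0.31) did not pass, with edgeR adjusted p of 0.0534 and 0.307. All 6 genes had both UV0 libraries above both blue0 libraries and an unadjusted p under 0.05. DESeq2 called 6, and edgeR with the replicate number as a block called 5. Between the 2 UV0 libraries of cry1cry2 all 6 genes were higher in replicate 2, with replicate 1 minus replicate 2 at -1.41 to -0.54 on the log2 scale, while over all genes this pair differed least of the 15 pairs (chi-square of 9.37 per degree of freedom). Without replicate 2 of UV0 the FLS1 estimate was 2.48 and FLS1 alone was called, and without replicate 1 of UV0 5 of the 6 were called. Without replicate 1 of blue0 none was called, and without its replicate 2 only CHS and not the other 5. The CHIL call was also lost without the filter on low counts (edgeR adjusted p = 0.0545). With cry1cry2 fitted without the other genotypes, CHS alone was called, with edgeR adjusted p of 0.353 for CHIL, 0.223 for F3H and 0.202 for FLS1. The step was smaller in cry1cry2 than in Ler by 0.76 to 1.31 on the log2 scale as estimated, with 4 members at an unadjusted p under 0.05 but 0 called by edgeR (0.546% of genes) and 0 by DESeq2.

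Over the whole UV range, from UV0 to UVA+B, all 6 genes rose in Ler and in cry1cry2. In Ler the rises were 2.62 ± 0.30 (CHS), 2.65 ± 0.21 (CHI), 2.96 ± 0.32 (CHIL), 3.01 ± 0.31 (F3'H), 3.36 ± 0.38 (F3H) and 3.41 ± 0.38 (FLS1), where 9.47% of genes were called higher. In cry1cry2, where 16.3% of genes were called higher, they were 3.27 ± 0.22 (CHI), 3.47 ± 0.32 (F3'H), 4.02 ± 0.31 (CHS), 4.22 ± 0.34 (CHIL), 4.69 ± 0.40 (F3H) and 5.09 ± 0.41 (FLS1). FLS1 in cry1cry2 thus stood 34.0-fold higher under UVA+B, at 1947 and 1807 CPM, than under UV0. Without cry1cry2 UV0 replicate 2 that estimate became 5.98 and the F3H estimate 5.28. The differences between cry1cry2 and Ler were 0.46 to 1.67, with 0 members called by edgeR (0.0651% of genes, 5 members at an unadjusted p under 0.05) and 1 by DESeq2. Without cry1cry2 UV0 replicate 2, edgeR called 1.

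In uvr8-2, 1 of the 6, CHI, was called higher over the whole UV range, where 0.681% of genes were called higher. CHI was at 161 and 148 CPM under UVA+B and at 77.6 and 71.9 under UV0, a rise of 1.04 ± 0.21 (edgeR adjusted p = 0.0182). This call was lost without any single library of the 4 and with uvr8-2 fitted alone (edgeR adjusted p = 0.0764), where FLS1 was called instead. The estimates of the other genes were 0.81 (F3'H), 0.83 (CHIL), 0.94 (CHS), 1.32 (F3H) and, highest, FLS1 (2.83-fold, SE 0.35 on the log2 scale), with both UVA+B libraries above both UV0 libraries in all 6. All 6 had an unadjusted p under 0.05, and DESeq2 called 4. The total UV response was smaller in uvr8-2 than in Ler in 3 of the 6, where 0.556% of genes had a lower response. The differences were -1.61 ± 0.29 for CHI, -2.14 ± 0.43 for CHIL and -2.20 ± 0.41 for F3'H (edgeR adjusted p = 0.00766, 0.0234 and 0.0155). For CHS, F3H and FLS1 the differences were -1.68, -2.04 and -1.91, with edgeR adjusted p of 0.0567, 0.0716 and 0.0941. DESeq2 called all 6. Without Ler UV0 replicate 1 or Ler UVA+B replicate 2, 0 members were called. Leaving out replicate 1 of uvr8-2 UVA+B or of uvr8-2 UV0 left 1, and leaving out replicate 2 of either left 2. The CHIL call was also lost without the filter on low counts (edgeR adjusted p = 0.0505).

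The genotypes were then compared under the same filter. The comparisons with uvr8-2 and with cry1cry2 share the Ler libraries. Under UVA+B all 6 genes were lower in uvr8-2 than in Ler, where 8.4% of genes were called lower. FLS1 was at 445 and 449 CPM in uvr8-2 against 1572 and 1828 in Ler, and CHIL at 263 and 254 against 937.5 and 1074. The differences ran from -1.66 ± 0.21 (CHI) to -2.27 ± 0.30 (F3'H), with edgeR adjusted p of 3.01e-05 to 0.002 and no overlap in any gene. In cry1cry2 under UVA+B, none of the 6 was called (0.861% of genes; 1 member at an unadjusted p under 0.05; 0 by DESeq2). The estimates were 0.20 ± 0.28 for CHS, 0.14 ± 0.34 for FLS1, -0.03 ± 0.34 for F3H, -0.07 ± 0.30 for CHIL, -0.27 ± 0.20 for CHI and -0.76 ± 0.29 for F3'H. F3'H was at 325 and 378 CPM in cry1cry2 against 481 and 713 in Ler, with no overlap.

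Under UVA, CHI was lower in uvr8-2, at 96.2 and 61.5 CPM against 186 and 130.1 in Ler (0.499 times the Ler level, edgeR adjusted p = 0.0415), where 0.15% of genes were called lower. The other estimates were -0.88 to -1.44 with no overlap in any of the 6 genes, and all 6 had an unadjusted p under 0.05, with 4 called by DESeq2. The CHI call was lost without any single library of the 4, with estimates of -1.37 to -0.72, and other genes lost their calls in those fits too. The CHI call was also lost without the filter on low counts (edgeR adjusted p = 0.0646). It was lost as well with the fit on these genotypes alone (edgeR adjusted p = 0.0694), where FLS1 was called instead. In cry1cry2 under UVA, CHI (-0.75 ± 0.20) and F3'H (-1.21 ± 0.30) were lower than in Ler, where 1.47% of genes were called lower. CHS was at 1637 and 1153 CPM against 2044 and 1355, overlapping, with an estimate of -0.28 ± 0.28. Both cry1cry2 calls were lost without Ler UVA replicate 1, without cry1cry2 UVA replicate 1 and without cry1cry2 UVA replicate 2. The last of these is 1 of the libraries with over 1% chloroplast counts, and leaving out those libraries gave edgeR adjusted p of 0.282 for CHI and 0.226 for F3'H. Without the filter on low counts they were 0.0755 and 0.0654.

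Under UVA350 and under UV0 it was cry1cry2 that lay below Ler in all 6 genes, with no overlap. Under UVA350, where 4.82% of genes were called lower, FLS1 was at 27.1 and 19.2 CPM in cry1cry2 against 100.1 and 135 in Ler (-2.35 ± 0.37, edgeR adjusted p = 0.000718). CHS was at 207 and 199 against 607 and 771 (-1.77 ± 0.29, edgeR adjusted p = 0.000678). The smallest differences were those of CHI (-1.17 ± 0.21) and F3'H (-1.25 ± 0.31), and F3'H lost its call without Ler UVA350 replicate 1, without Ler UVA350 replicate 2 and without cry1cry2 UVA350 replicate 2. Under UV0, where 3.42% of genes were called lower, the differences were -0.89 ± 0.21 for CHI to -1.53 ± 0.36 for FLS1, with edgeR adjusted p of 0.0113 to 0.0265. Without cry1cry2 UV0 replicate 1 or without Ler UV0 replicate 2, 0 of the 6 were called, and without Ler UV0 replicate 1 the 5 other than F3H. Without cry1cry2 UV0 replicate 2 all 6 were called and the differences were larger, -1.95 for F3H and -2.42 for FLS1. F3H also missed the threshold without the filter on low counts (edgeR adjusted p = 0.0544).

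In uvr8-2 none of the 6 differed from Ler by the test under these filters. Under UVA350 the estimates were -0.19 to 0.55 (0.01% of genes called), and 4 of the 6 genes had both uvr8-2 libraries above both Ler libraries. Under UV0 they were -0.07 to 0.17 (0.135% of genes called), with overlap in all 6. Under blue0 neither mutant differed by the test. The estimates there were -0.08 to 0.56 in uvr8-2 (0.0% of genes, 1130 at an unadjusted p under 0.05) and -0.60 to -0.04 in cry1cry2 (1.51% of genes). Both uvr8-2 libraries lay above both Ler libraries in 3 of the 6 genes, and both cry1cry2 libraries lay below in 4. In these 4 comparisons 0 members had an unadjusted p under 0.05 and DESeq2 called 0. A missed threshold does not show that the levels were equal.

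**Figure D3:**
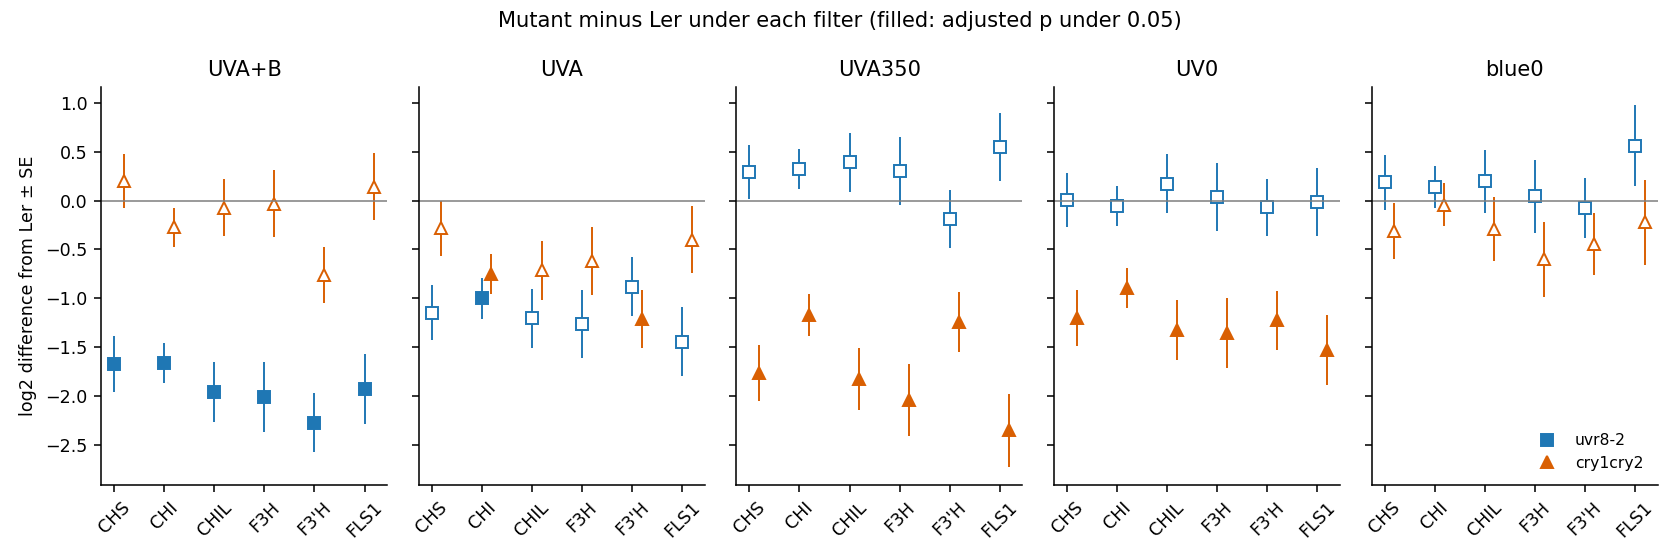
Log2 difference from Ler with its standard error for uvr8-2 and cry1cry2 under each filter, from the fit over all 30 libraries; filled symbols passed an adjusted p of 0.05. The uvr8-2 values lie near -2 under UVA+B and near 0 under UV0, while the cry1cry2 values are lowest under UVA350, at -1.17 to -2.35. Both mutants are set against the same Ler libraries.

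Within the run of enzymes, proportions were compared as CPM per kilobase of coding length. CHS made up 40.8% to 52.5% of the summed level of the 6 genes in every group, and CHIL 10.9% to 16.6%. The FLS1 share went from 3.53% (Ler), 4.69% (uvr8-2) and 3.77% (cry1cry2) under blue0 to 15.7%, 14.8% and 16.7% under UVA+B. F3H went from 8.12% in cry1cry2 under blue0 to 18.9% in Ler under UVA+B. The CHI share ran the other way, from 16.0%, 15.8% and 19.3% under blue0 in Ler, uvr8-2 and cry1cry2 to 6.14%, 6.93% and 4.9% under UVA+B. The F3'H share lay between 1.11% in cry1cry2 under UVA and 7.61% in Ler under blue0.

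F3'H and FLS1 can both act on dihydroflavonols, and their ratio per coding kilobase was taken in each library. Under blue0 the ratio of F3'H to FLS1 was 2.87 and 1.66 in Ler, 1.62 and 1.15 in uvr8-2, and 1.64 and 2.05 in cry1cry2, so F3'H was the higher in all 6 libraries. In all 24 libraries under the other filters the ratio was below 1. In cry1cry2 it was 0.669 and 0.711 under UVA350, 0.0703 and 0.0717 under UVA, and 0.110 and 0.137 under UVA+B, with no overlap between these filters. In Ler it was 0.382 and 0.273 under UVA350, 0.135 and 0.111 under UVA, and 0.200 and 0.256 under UVA+B. In uvr8-2 the same filters gave 0.192 and 0.192, 0.199 and 0.161, and 0.173 and 0.189, where the UVA pair overlapped with the pairs of both other filters. With 2 libraries against 2, an exact two-sided permutation test cannot give a p under 0.333, so the ratios are given as values.

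**Figure D4:**
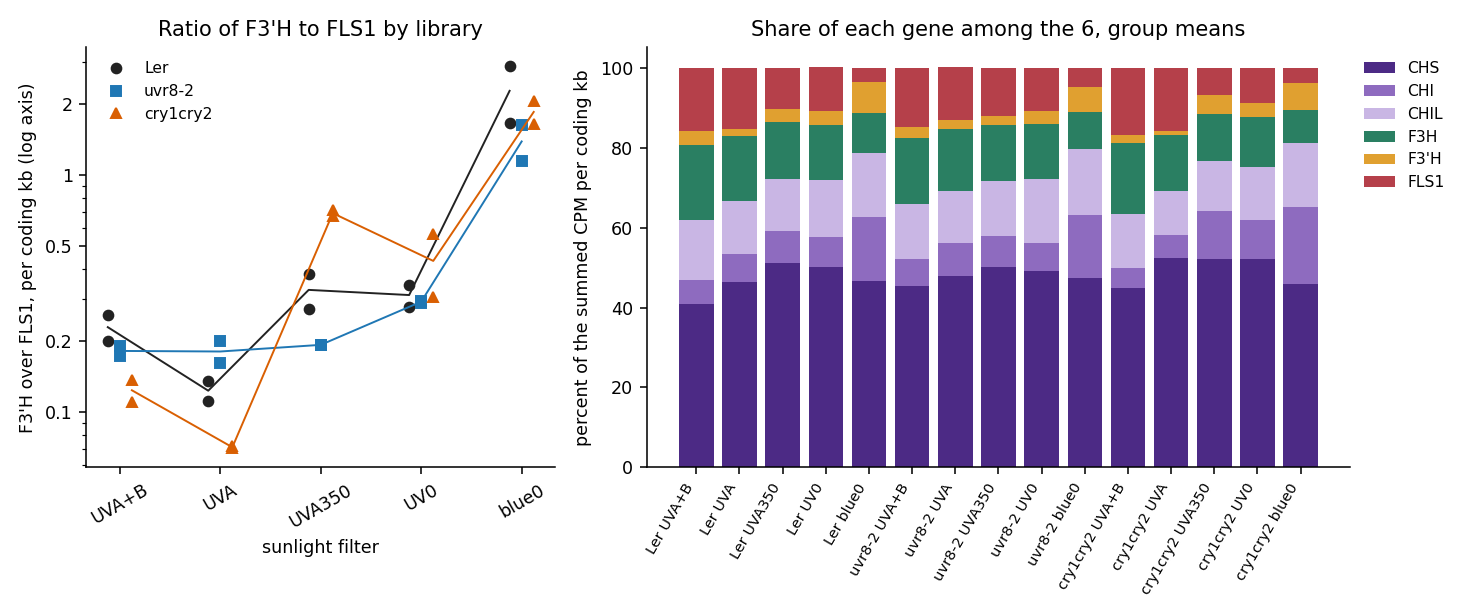
Left, ratio of F3'H to FLS1 per coding kilobase (log axis) in each library under the 5 filters, with lines through group means. Right, the share of each gene in the summed CPM per coding kilobase of the 6, as group means that add to 100 apart from rounding; the ratio is above 1 in the blue0 libraries and lowest, at about 0.07, in cry1cry2 under UVA.

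The genes also deviated together between the 2 libraries of a group. In 7 of 15 groups all 6 were higher in the same replicate. This was replicate 1 for 4 groups (Ler UVA, uvr8-2 UVA, cry1cry2 UVA and cry1cry2 UVA350) and replicate 2 for 3 (Ler UVA+B, Ler UV0 and cry1cry2 UV0). How often other sets of genes deviate together in this way was not counted, so it is not shown to be a trait of these 6. Over the 15 replicate differences Pearson's r between pairs of members was 0.724 (F3'H and FLS1) to 0.939 (CHIL and F3H). Over the 15 group means it was 0.903 (F3'H and FLS1) to 0.999 (CHS and F3H). These points share libraries, depth and scaling, and the correlations between members are descriptions with no background from other pairs of genes.

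By the same measure over 15586 other genes, those most like the mean of the 6 over the 15 group means were UGT78D2 (r = 0.998), a flavonol 3-O-glucosyltransferase, PES1 (0.995), a chloroplast phytyl ester synthase, AT5G37550 (0.994), UGT84A2 (0.994), a sinapate glucosyltransferase, and 4CL3 (0.993), the 4-coumarate-CoA ligase of the flavonoid branch. They were followed by PAL1 (0.992), CM1 (0.992), RUG1 (0.991), ABCC2 (0.990) and LPR1 (0.989). Taken singly, CHS was most like F3H (0.999), FLS1 (0.997) and UGT84A2 (0.994), and F3H was most like CHS, FLS1 and UGT78D2 (0.995). CHI was most like MGE1 (0.996), UGT78D2 (0.995) and PES1 (0.995), and CHIL like 4CL3, UGT78D2 and F3H (0.995 each). FLS1 was most like CHS, F3H (0.996) and CRY3 (0.992). For F3'H no other member was among the 3, which were DBP1 (0.989), AT4G04750 (0.988) and SHM4 (0.987). This likeness does not measure the size of a change. Over the group means MGE1 ran from 16.7 to 36.5 CPM, RUG1 from 10.6 to 33.5 and DBP1 from 22.2 to 91.6. UGT78D2 ran from 30.0 to 760 CPM and CHI from 20.3 to 488.

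The rest of the pathway was followed in lists of its steps. Of 9 general phenylpropanoid genes, which supply p-coumaroyl-CoA, 4 rose at the Ler UV-B step, 4 at the cry1cry2 short UV-A step and 5 at the Ler blue step, where 2.23%, 2.19% and 9.7% of all genes tested were called higher. At total UV 6 rose and 1 fell in Ler, where 9.47% of all genes were called higher and 8.3% lower. In cry1cry2 6 rose and 2 fell, where 16.3% were called higher and 17.8% lower, while 1 rose in uvr8-2, where 0.681% did. C4H, cinnamate 4-hydroxylase, rose by 2.57 ± 0.22 in Ler and by 3.18 ± 0.23 in cry1cry2, and by 0.92 ± 0.21 in uvr8-2. PAL2, a phenylalanine ammonia-lyase, rose by 2.70 ± 0.26 and 3.36 ± 0.27, and 4CL3 by 3.07 ± 0.26 and 4.32 ± 0.28, in Ler and cry1cry2. In uvr8-2 the estimates of these were 1.00 ± 0.25 and 0.82 ± 0.24 and did not pass. The list medians at total UV were 1.49 in Ler, 0.58 in uvr8-2 and 1.39 in cry1cry2, beside 0.00, 0.00 and -0.03 over all genes tested and 2.99, 0.99 and 4.12 for the 6 members.

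Genes that decorate flavonols were counted in the same way. Of 7 tested, 5 rose at the Ler UV-B step, 6 at the cry1cry2 short UV-A step, and 6 in Ler and 7 in cry1cry2 at total UV, against 0 in uvr8-2. Over all genes the shares called higher in these 5 comparisons were 2.23%, 2.19%, 9.47%, 16.3% and 0.681%. RHM1, a rhamnose synthase, rose by 2.76 ± 0.22 in Ler and 3.58 ± 0.23 in cry1cry2, and UGT89C1, a flavonol 7-O-rhamnosyltransferase, by 2.47 ± 0.22 and 3.48 ± 0.23. OMT1, the O-methyltransferase that makes isorhamnetin, rose by 1.22 ± 0.15 and 1.29 ± 0.15. Of the late anthocyanin list 5 genes passed the filter and all 5 rose at total UV in Ler and cry1cry2 (9.47% and 16.3% of all genes), with 0 in uvr8-2 (0.681%). TT19, a glutathione transferase needed for anthocyanin transport, rose by 2.15 ± 0.21 in Ler and 2.62 ± 0.22 in cry1cry2. The anthocyanin glycosyltransferases UGT75C1 and UGT79B1 rose in Ler too, UGT75C1 by 1.29 ± 0.25. Under UVA+B, 4 of these 5 were lower in cry1cry2 than in Ler, among them UGT75C1 (-1.32 ± 0.25) and UGT79B1 (-1.21 ± 0.21). There 0.561% of all genes were called lower, and 0 of the 6 early genes and 0 of the 7 decorating genes were called. All 5 late genes were also lower in cry1cry2 under UVA, UVA350 and UV0 (1.47%, 4.82% and 3.42% of all genes). Under UVA, 2 early genes and 1 decorating gene were called lower. Under UVA350 and UV0 all 6 early genes were lower, with 6 and 5 of the decorating genes.

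**Figure D5:**
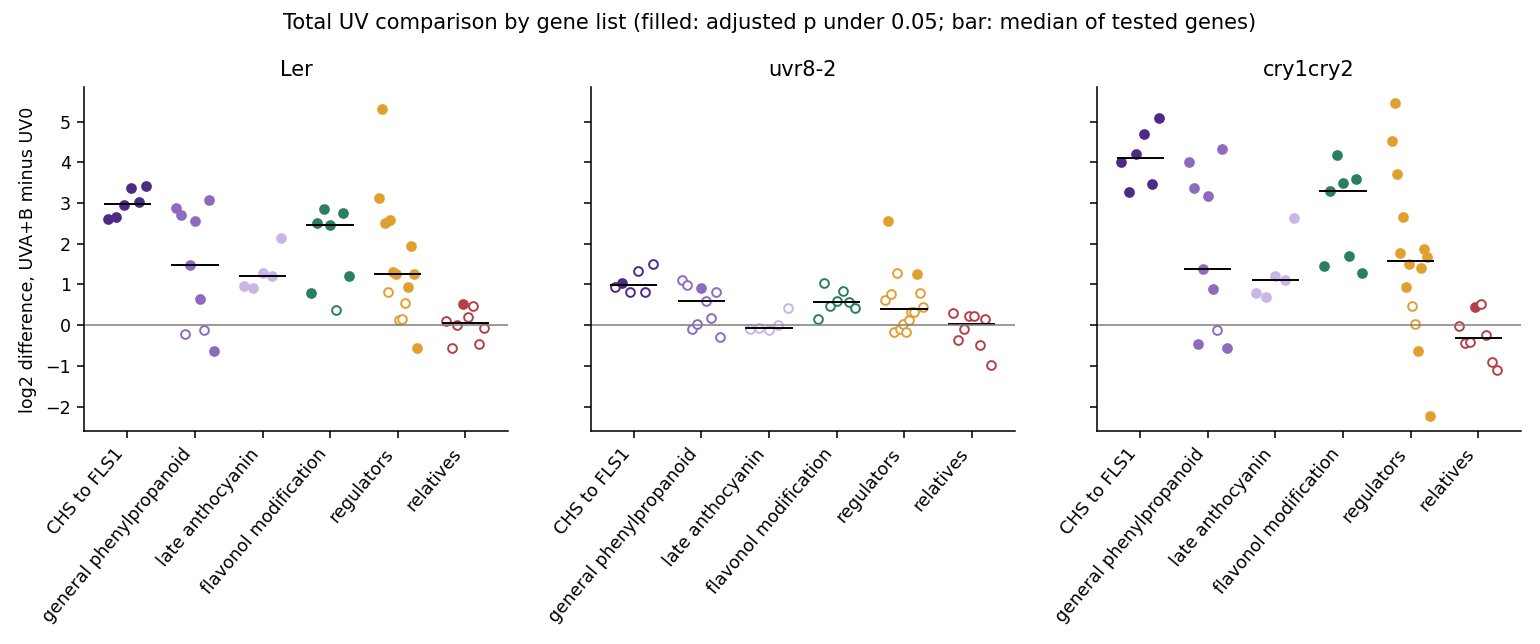
Log2 difference between UVA+B and UV0 for every tested gene of the 6 members and of 5 other lists, in Ler, uvr8-2 and cry1cry2; filled points passed an adjusted p of 0.05 over all genes and bars are medians. The medians of the 6 members are 2.99, 0.99 and 4.12, and those of the structural relatives are near 0 in Ler and uvr8-2.

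Among 14 regulators, 6 rose at the UV-B step in Ler and 11 at the blue step in Ler, against 2.23% and 9.7% of all genes. At total UV 9 rose and 1 fell in Ler (9.47% higher and 8.3% lower over all genes), 10 rose and 2 fell in cry1cry2 (16.3% and 17.8%), and 2 rose in uvr8-2 (0.681%). MYB12 had the largest estimate of those named, with rises at total UV of 5.31 ± 0.45 in Ler, 2.56 ± 0.45 in uvr8-2 and 5.46 ± 0.45 in cry1cry2. At the short UV-A step it rose by 3.55 ± 0.50 in Ler and 3.69 ± 0.53 in cry1cry2. MYB11 and MYB111 rose by 3.13 ± 0.39 and 2.50 ± 0.41 at total UV in Ler and by 4.51 ± 0.48 and 3.73 ± 0.44 in cry1cry2. HY5 rose in all genotypes, by 1.95 ± 0.25, 1.26 ± 0.25 and 1.87 ± 0.24 in Ler, uvr8-2 and cry1cry2. KFB-CHS, an F-box protein that targets CHS for degradation, fell by 0.55 in Ler and by 2.23 in cry1cry2, and its estimate in uvr8-2 was 0.46 ± 0.18.

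Of 12 structural relatives of the members, such as the fatty-acid-binding FAP proteins, the pollen CHS-like LAP enzymes and FLS2 to FLS6, 8 passed the filter. LAP6 rose at total UV in Ler (0.52 ± 0.16) and cry1cry2 (0.44 ± 0.15), where 9.47% and 16.3% of all genes rose, and none of the other 7 was called there. FAP2 and FLS3 had estimates of -0.56 ± 0.30 and -0.47 ± 0.41 in Ler. The list medians at total UV were 0.06 in Ler, 0.02 in uvr8-2 and -0.33 in cry1cry2.

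Epidermal markers were set beside the early genes, since flavonols collect in that tissue. Their summed level was lowest in Ler UVA+B replicate 2 (1040 CPM) and highest in Ler blue0 replicate 1 (1810 CPM). In Ler the group means were 1110, 1370 and 1690 CPM under UVA+B, UV0 and blue0, opposite in direction to the 6 genes. In cry1cry2 they were 1110, 1430 and 1530 CPM, also opposite. In uvr8-2 they were 1480, 1370 and 1700 CPM, so from UV0 to UVA+B the sum rose there, as the 6 genes did. Of the 6 epidermal markers 0 were called for the Ler UV-B step, 2 were lower in cry1cry2 at that step (7.29% of all genes) and 3 were lower there at total UV (17.8%). Under UVA+B, 2 were higher in uvr8-2 than in Ler, where 6.79% of all genes were called higher. The group means of their sum were 1110 CPM in both Ler and cry1cry2 under UVA+B and 1480 in uvr8-2. At the blue step 1 of the 6 was lower in Ler and 2 were lower in uvr8-2 (8.43% and 6.86% of all genes).

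Of the 5 rosette leaf markers, 4 were lower in cry1cry2 at the UV-B step, where all 6 early genes rose and 7.29% of all genes were lower. In cry1cry2 at total UV 3 were lower and 1 was higher (17.8% of all genes lower, 16.3% higher). At the blue step 1 was lower and 2 were higher in Ler (8.43% of all genes lower, 9.7% higher), and 3 were lower and 2 higher in uvr8-2 (6.86% and 8.38%). Under UVA+B 1 was higher in uvr8-2 than in Ler (6.79% of all genes), and under UVA350 1 was lower in cry1cry2 than in Ler (4.82%). Their sum lay between 18800 and 32900 CPM over the libraries, with means of 22400 CPM under UVA+B and 27000 under UVA in cry1cry2, and of 24500 under UV0 and 20100 under blue0 in Ler. Guard cell markers summed to between 79.8 and 134 CPM. Of these 4, 1 was higher at the blue step in Ler and in uvr8-2 (9.7% and 8.38% of all genes). Phloem markers summed to between 122 and 221 CPM. Of these 2, 1 was called higher in cry1cry2 than in Ler under UVA350 and under UV0. The share of all genes called higher there is not given here, so this count cannot be weighed. The means of the phloem sum were 203 against 148 CPM under UVA350 and 183 against 131 under UV0. Of the 4 flower markers, 1, AG, passed the filter on low counts. AG was higher in uvr8-2 than in Ler under UVA+B (6.79% of all genes), at low means of 1.84 against 0.652 CPM. The part of tissue makeup in the results was not tested.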

How the data were processed

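Whole rosettes were measured by RNA-seq in 30 libraries of 15 groups, taken from the titles, with 2 libraries per group. The authors deposited estimated counts per locus in 1 table of 34212 loci. FastQC, Trimmomatic 0.33 and kallisto were used, per the submitters' processing notes, and a stranded mRNA kit, per the labels' protocols. Not given in the sources used here are the kallisto version, its transcriptome, the genome build and how strand was handled.

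Estimated counts were rounded to whole numbers. Genes were kept with filterByExpr by group, which left 19980, scaled with TMM factors of 0.927 to 1.11, and tested with edgeR 4.0.16 in R 4.3.3 (robust quasi-likelihood F-test, 1 coefficient per group over all 30 libraries, 15 residual degrees of freedom, common biological coefficient of variation 0.125). In all 35 comparisons, of which 12 were filter steps, 3 total UV, 10 genotype and 10 differences of responses, p-values were adjusted by Benjamini-Hochberg over all genes tested, and a gene was called under 0.05. The standard error is the log2 difference over the square root of F. CPM are counts scaled by the library total times its TMM factor, as linear values. Likeness used log2 CPM with a prior count of 2, over genes of at least 5 CPM in their highest group. Code was tested on simulated counts. Replicate pairs were compared by a chi-square test over genes, and all 15 exceeded sampling noise, at 9.37 to 41.9 per degree of freedom.

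All 6 members were named in every comparison. In each list the 3 genes with the smallest adjusted p at total UV in Ler were named, plus MYB12, MYB111, HY5 and KFB-CHS. The members and lists were chosen with earlier results of these data known. Loci, exons, coding lengths, proteins and sequences came from the RefSeq annotation of TAIR10.1, which was joined to the counts by locus identifier. Alternatives were DESeq2 1.42.0, RLE factors, no filter, no rounding, the replicate number as a block, fits on the genotypes compared alone, and fits without single libraries or those with over 1% chloroplast counts.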

Additional observations from a re-analysis of the deposited data

Results flagged for a closer look

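The total UV response of CHI, CHIL and F3'H differed between uvr8-2 and Ler by the test of the difference itself, where 0.556% of genes had a lower response. CHS, F3H and FLS1 were not called by edgeR, with differences of -1.68, -2.04 and -1.91, while DESeq2 called all 6. Each of the 3 edgeR calls was lost in some leave-one-out fits. The difference of uvr8-2 from Ler in the response from UV0 to UVA+B was -1.61 on the log2 scale for CHI, -2.14 for CHIL and -2.20 for F3'H (edgeR adjusted p = 0.00766, 0.0234 and 0.0155). The change within uvr8-2 was 1.04 for CHI, 0.83 for CHIL and 0.81 for F3'H, against 2.65, 2.96 and 3.01 in Ler, and in both genotypes the UVA+B libraries lay above the UV0 libraries.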

How the results depend on the processing

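Each comparison was refitted under 6 alternatives and without each of its libraries in turn, and those that used a library of over 1% chloroplast counts also without such libraries. No called member result changed direction in any fit. Of the 72 called results, DESeq2, RLE factors, unrounded counts and the replicate block kept all 72, the fit without the filter on low counts lost 7 and the fit on the genotypes compared lost 6. With the libraries of over 1% chloroplast counts left out, 23 of 25 recomputed results kept their call. Leave-one-out fits kept 48 in every fit and lost 24 in at least 1, and a lone library was then assumed to vary like the other groups.

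The number of members called moved as follows. With DESeq2, 4 members passed at the uvr8-2 UV-B step (0 with edgeR), 5 at the Ler short UV-A step (2) and 6 at the blue step in cry1cry2 (4). It called 4 at total UV in uvr8-2 (1), 4 for uvr8-2 against Ler under UVA (1) and 6 for the total UV difference of uvr8-2 from Ler (3). It called 1 (0) for the short UV-A difference of either mutant from Ler and the total UV difference of cry1cry2. The share of all genes that DESeq2 called is not given here, so its member counts have no background beside them. Without the filter, 1 was called at the Ler short UV-A step (2), 3 at the blue step in cry1cry2 (4), 5 for cry1cry2 against Ler under UV0 (6), 2 for the total UV difference of uvr8-2 (3) and 0 under UVA for uvr8-2 (1) and cry1cry2 (2) against Ler. On the genotypes compared alone, 1 was called at the blue step in cry1cry2 (4), 3 at the Ler short UV-A step (2) and 5 for the total UV difference of uvr8-2 (3). Without the chloroplast-rich libraries, 0 were called for cry1cry2 against Ler under UVA (2). With the replicate block, 3 were called at total UV in uvr8-2 (1), 3 at the Ler short UV-A step (2), 5 at the blue step in cry1cry2 (4) and 4 for the total UV difference of uvr8-2 (3). Leave-one-out counts ran from 2 to 6 at the Ler UV-B step, 0 to 2 at the Ler short UV-A step, 0 to 5 at the blue step in cry1cry2, 0 at total UV in uvr8-2, 0 for uvr8-2 and 0 to 2 for cry1cry2 against Ler under UVA, 5 to 6 under UVA350 and 0 to 6 under UV0 for cry1cry2, 0 to 3 for the total UV difference of uvr8-2 and 0 to 1 for that of cry1cry2. Where fewer samples entered a fit, fewer degrees of freedom were left, and other causes were not tested. The number of all genes called also changed in leave-one-out fits, so a lost call need not be particular to a member.

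The replicate numbers were not treated as pairs in the main fit. The labels do not tie a number to field blocks, and not every correlation of replicate deviations between groups was over 0.1. All of these correlations were positive, and only the replicate block fit allowed for a deviation shared by a replicate number. Of 105 pairs of groups, 92 had a correlation of replicate deviations over 0.1 and 0 were under -0.1 (median 0.178, range 0.0261 to 0.435). The lowest estimated count of a member in any library was 92. How the calls depend on the number of libraries was not tested.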
